A study of Mus musculus with 10 samples.

Results

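The nuclear genes for the mitochondrial respiratory chain were followed in crypts of the mouse colon, the pits of the epithelium in which its stem cells divide. Members were the protein-coding genes whose symbol begins with Nduf, Uqcr, Sdh or Atp5, or with Cox followed by 4, 5, 6, 7 or 8, and 96 of the 33632 gene IDs in the count table met this rule. They comprised 36 genes of complex I, 4 of complex II, 8 of complex III, 18 of complex IV, 17 of complex V and 13 assembly or other factors that share these symbols. Of the 96, 91 passed the filter on low counts, among 14963 genes tested in all. The symbols Cox7b2 and Cox8c met the rule and had no row in the table.

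RNA was sequenced from 10 samples of crypt tissue, 5 labelled CKO and 5 labelled flox. CKO samples carried Lgr5-EGFP-IRES-CreERT2/+ together with Sox21fl/fl, so that a Cre recombinase activated by tamoxifen is made from the Lgr5 locus of crypt base stem cells. Flox samples carried Sox21fl/fl and no Cre. All were labelled normal diet and normal liver, only CKO samples carried the knock-in at Lgr5, and the labels give neither age, tamoxifen schedule nor which crypt cells were recovered. Nothing states that the samples came from separate animals, so p-values measure the spread between samples.

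The respiratory chain passes electrons from NADH, through complex I, and from succinate, through complex II, to ubiquinone, then through complex III and cytochrome c to oxygen at complex IV. Complexes I, III and IV pump protons, and complex V, the ATP synthase, uses the gradient to make ATP. Complexes I, III, IV and V are built from subunits of both genomes, whereas complex II is wholly nuclear. Colonocytes use this chain to burn butyrate from the gut flora.

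Nuclear respiratory chain promoters are known for binding sites of NRF1, a transcription factor that recognises a palindrome. Its 10 letters, in capitals in the sequences below and the same on both strands, were searched in the RefSeq promoter windows, each 250 bases before to 50 bases after a gene's start. They occurred in 7 of the 79 windows that matched a member (8.86%), against 1.32% of 17492 protein-coding promoters. The 170 bases before the start are shown for the 5 members in which the letters lay before the start, with those letters in capitals. They are given 5′ to 3′ on the gene's strand, from RefSeq on build GRCm38.p6.
Atp5k, chr5:108434400-108434569, minus strand: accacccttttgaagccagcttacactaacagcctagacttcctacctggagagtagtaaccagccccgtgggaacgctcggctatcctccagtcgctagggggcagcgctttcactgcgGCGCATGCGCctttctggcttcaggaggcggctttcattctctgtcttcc
Ndufa11, chr17:56717592-56717761, plus strand: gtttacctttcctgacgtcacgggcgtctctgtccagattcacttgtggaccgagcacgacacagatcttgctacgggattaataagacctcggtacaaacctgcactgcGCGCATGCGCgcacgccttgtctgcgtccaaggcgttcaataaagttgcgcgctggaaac
Cox6a1, chr5:115348959-115349128, minus strand: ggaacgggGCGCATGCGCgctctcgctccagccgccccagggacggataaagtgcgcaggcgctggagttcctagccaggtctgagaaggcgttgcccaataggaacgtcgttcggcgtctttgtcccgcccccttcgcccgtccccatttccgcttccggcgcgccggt
Atp5g2, chr15:102671048-102671217, minus strand: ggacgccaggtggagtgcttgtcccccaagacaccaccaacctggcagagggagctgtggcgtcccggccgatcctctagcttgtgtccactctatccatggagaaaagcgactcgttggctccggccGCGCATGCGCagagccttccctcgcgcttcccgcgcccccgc
Ndufaf4, chr4:24897913-24898082, plus strand: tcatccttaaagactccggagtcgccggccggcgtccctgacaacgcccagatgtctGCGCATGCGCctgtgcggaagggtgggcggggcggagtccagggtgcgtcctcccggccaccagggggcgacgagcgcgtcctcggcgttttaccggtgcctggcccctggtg

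The first base of the NRF1 letters lay 50 bases before the start in Atp5k, 60 in Ndufa11, 162 in Cox6a1, 42 in Atp5g2 and 113 in Ndufaf4. The letters AAGATGGC of YY1 (reverse complement GCCATCTT) stood in 10 of the 79 windows (12.7%), against 3.22% of all promoters, and 7 of the 10 belonged to complex I. The letters CCGGAAGT of ETS factors such as GABP (reverse complement ACTTCCGG) stood in 5 (6.33%), against 5.29%. The letters TCAAGGTCA of the oestrogen-related receptor alpha (reverse complement TGACCTTGA) stood in 2 (2.53%), against 0.332%. Matches on both strands were counted, and none of the 4 strings contains another. A match describes the letters of the window and not occupancy by the factor.

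The libraries held 18926634 to 23642415 counts. Genes of the mitochondrial chromosome took 6.38%, 4.30%, 5.61%, 11.8% and 4.43% of the counts in CKO 1 to 5, against 26.5%, 4.88%, 9.03%, 29.3% and 7.33% in flox 1 to 5. The means were 6.51% ± 3.10 in CKO and 15.4% ± 11.6 in flox (SD, n = 5 each), and a two-sided exact permutation test gave p = 0.167, where 0.00794 is the smallest p that 5 against 5 allows. Flox 1 and flox 4 stood apart, so results are also given without them, and the difference of means was then -0.57 percentage points (exact permutation p = 0.75). Without CKO 4 it was -10.2 percentage points (exact permutation p = 0.0476). Flox 1 and flox 4 also had relatively more counts on short transcripts than the mean library, with slopes of -0.31 and -0.18 log2 units per doubling of transcript length, against -0.08 to 0.14 in the other 8 libraries.

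The libraries labelled CKO did not have less Sox21 than flox. They held 7.79, 6.73, 3.39, 3.51 and 5.27 CPM, a count divided by its effective library size, against 1.98, 6.53, 4.06, 2.72 and 4.93 CPM in flox. Its log2 fold change, CKO over flox throughout, was 0.38 ± 0.34 (SE; edgeR adjusted p = 0.577). Directions below are therefore those of the libraries labelled CKO. Epithelial genes were abundant, with Epcam at 961 to 1135 CPM in CKO and 559 to 1102 CPM in flox. The summed level of the 10 colon epithelium markers did not overlap between groups, at 14833 to 30911 CPM in CKO and 33350 to 36014 CPM in flox. Taken singly, 9 of the 10 overlapped, and Muc2, a mucin of goblet cells, did not, at 5664 to 11098 CPM in CKO and 11358 to 19294 CPM in flox. The summed level of the 8 fibroblast and muscle markers was 50.5 to 206 CPM in CKO and 18.8 to 71.3 CPM in flox, with the smooth muscle gene Myh11 at or near 0 in all 10. Leukocyte markers summed to 16.3 to 33.7 CPM in CKO and 13.2 to 24.8 CPM in flox. The part of these differences in the results below was not tested, and in bulk tissue fewer cells of a type and less RNA per cell cannot be told apart.

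No member passed the test between CKO and flox. With edgeR's quasi-likelihood test and Benjamini-Hochberg adjustment over all genes, 0 of 91 members were called at an adjusted p of 0.05, where 0% of the 14963 genes tested were, and the smallest adjusted p of a member was 0.374. At an unadjusted p under 0.05, 2 members were higher in CKO (background 5.05% of genes) and 3 were lower (background 7.91%). DESeq2 called 0 members (background 0.957%), and limma voom with quality weights called 0 (background 0.294%). In no member did the groups fail to overlap, where 0.922% of genes lay wholly higher in CKO and 1.26% wholly lower. The median log2 fold change of the 91 members was -0.11, with 31 positive and 60 negative, beside a median of 0.00 over all tested genes.

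The members instead followed particular libraries. The level was highest of the 10 libraries in flox 1 for 69 of the 91 members (75.8%), against 25.2% of all tested genes. Within CKO, the library with the largest mitochondrial share, CKO 4, was the highest for 64 members (70.3%), against 26.9% of all genes. Flox 1, flox 4 and CKO 4 were the 3 highest libraries for 50 members (54.9%), against 12.1% of all genes. The 96 members summed to 19880, 18021, 18091, 24918 and 17878 CPM in CKO 1 to 5, against 36467, 17180, 19440, 27460 and 17223 CPM in flox 1 to 5. As a share of the counts outside mt- genes and mitochondrial pseudogenes they took 2.24% to 2.90% in CKO and 2.07% to 3.44% in flox. Those pseudogenes, nuclear copies of mitochondrial sequence, took 1.75% to 5.30% of all counts in CKO and 2.08% to 11.5% in flox.

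**Figure D1:**
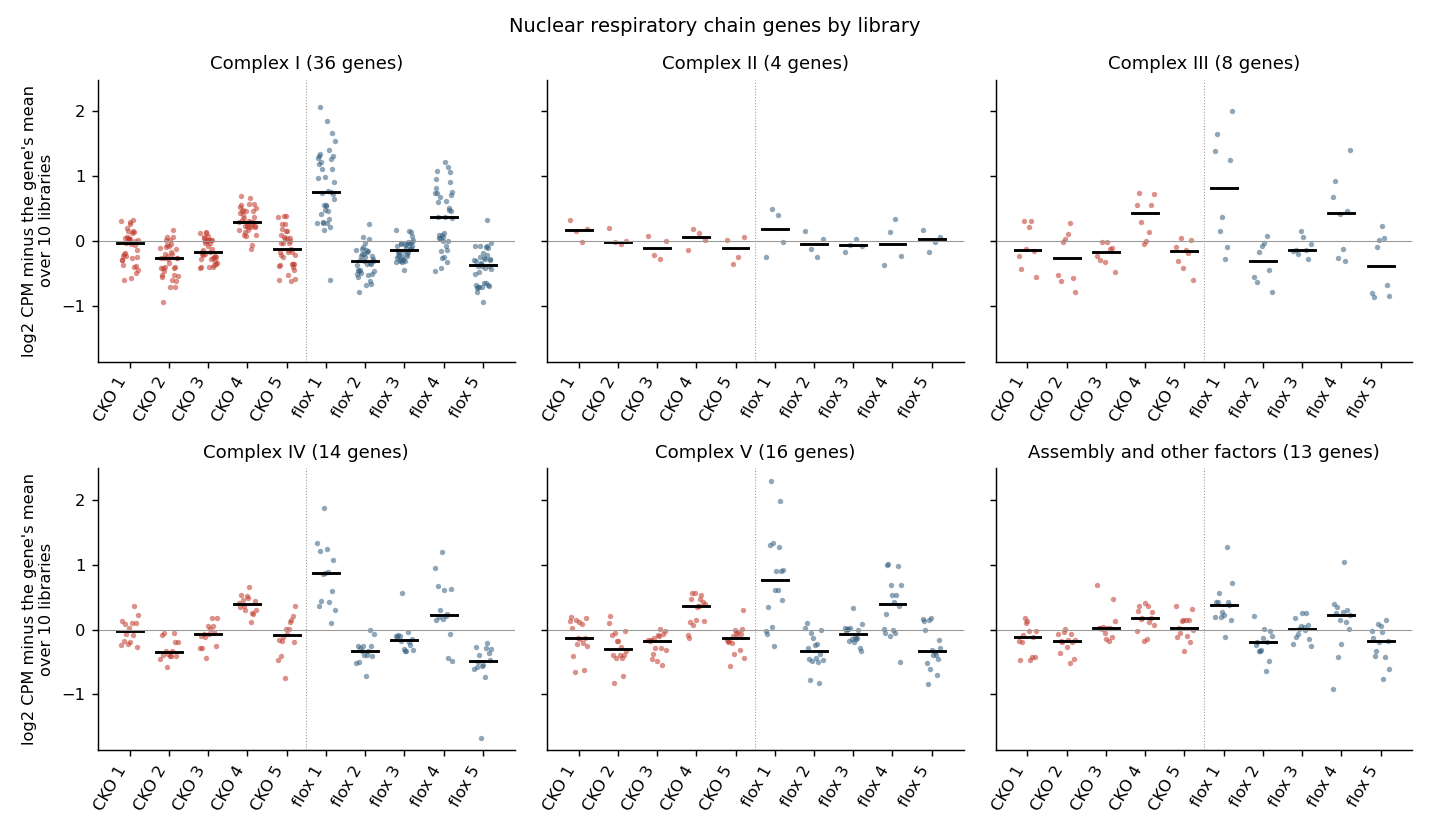
Each point is 1 tested gene in 1 library (x axis, CKO left and flox right); the y axis gives its log2 CPM minus its mean over the 10 libraries, and black bars are medians of the class. Complexes I, III, IV and V stood highest in flox 1, with flox 4 and CKO 4 next, while the genes of complex II went in different directions in the same library.

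Complex I oxidises NADH, and its nuclear core subunits carry the flavin and the iron-sulphur clusters of the electron path. Of its 36 genes, 12 had a positive and 24 a negative log2 fold change, with a median of -0.26 (-0.30 over the 7 nuclear core genes and -0.16 over the 29 accessory genes). Ndufs3, a core subunit of the peripheral arm, had 134, 124, 135, 212 and 116 CPM in CKO, against 425, 116, 198, 391.6 and 153 CPM in flox. Its log2 fold change was -0.83 ± 0.35 (edgeR adjusted p = 0.375), and it was highest in flox 1 and flox 4, with the other libraries of the groups overlapping.

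Ndufa10, an accessory subunit of the membrane arm, had the smallest p of complex I. It held 224, 230.1, 207, 313 and 183 CPM in CKO, against 541, 213, 312, 461 and 262 CPM in flox, a log2 fold change of -0.63 ± 0.26 (edgeR adjusted p = 0.374). Flox 1 and flox 4 were again the highest libraries, and CKO 4 the highest of CKO. Ndufa1, a small accessory subunit encoded on the X chromosome, went the other way, with 52.1, 39.1, 45.8, 51.6 and 54.7 CPM in CKO and 51.3, 38.2, 33.6, 30.7 and 34.3 CPM in flox. Its log2 fold change was 0.37 ± 0.15 (edgeR adjusted p = 0.375), and flox 1 lay within the range of CKO.

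Among the other core subunits, Ndufv1, which binds the flavin that takes electrons from NADH, averaged 238 ± 46.5 CPM in CKO and 339.9 ± 134 CPM in flox (SD, n = 5 each). Ndufs7, which carries the last cluster before ubiquinone, averaged 114 ± 35.1 CPM in CKO and 188 ± 105 CPM in flox. Ndufs8, a neighbouring iron-sulphur subunit, averaged 129 ± 20.7 CPM in CKO and 159 ± 50.8 CPM in flox, and Ndufv2, which carries a cluster beside the flavin, 169.6 ± 19.8 CPM in CKO and 205 ± 54.97 CPM in flox. Ndufs1, the largest core subunit, averaged 94.6 ± 11.5 CPM in CKO and 87.0 ± 22.5 CPM in flox, and flox 1 held its lowest value, 58.6 CPM. The edgeR adjusted p of these 5 core genes lay between 0.394 and 0.736.

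Complex II links the tricarboxylic acid cycle to the chain. The mean over its 4 genes had the narrowest spread of the 6 classes between libraries, and their levels summed to 1035 to 1266 CPM in CKO and 1076 to 1286 CPM in flox, with a median log2 fold change of -0.01. Sdha, the flavoprotein that oxidises succinate, had 389.6, 357, 328, 281 and 315 CPM in CKO, against 262, 344, 276, 239 and 349 CPM in flox, and its log2 fold change was 0.18 ± 0.15 (edgeR adjusted p = 0.554). Sdhc, a membrane anchor, had the smallest p of complex II, at -0.21 ± 0.16 (edgeR adjusted p = 0.509). Sdhb, the iron-sulphur subunit, was at -0.11 ± 0.17, and Sdhd, the other anchor, at 0.09 ± 0.11. The libraries with a high mitochondrial share did not share a direction in these 4 genes: flox 1 and flox 4 were lowest for Sdha and highest for Sdhc.

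Complex III passes electrons from ubiquinol to cytochrome c. Its 8 genes had a median log2 fold change of -0.30. Of the core proteins, Uqcrc2 averaged 294 ± 27.8 CPM in CKO and 283 ± 37.3 CPM in flox. Uqcrfs1, the Rieske iron-sulphur protein, averaged 279 ± 42.7 CPM in CKO and 247 ± 26.4 CPM in flox. Uqcrc1, the other core protein, had the smallest p of complex III, with 521, 579, 453, 552 and 425 CPM in CKO, against 734, 540.2, 630.3, 760.0 and 573 CPM in flox. Its log2 fold change was -0.36 ± 0.16 (edgeR adjusted p = 0.381), and the groups overlapped through flox 2, flox 5, CKO 2 and CKO 4.

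Among the small subunits of complex III, Uqcrq, which binds ubiquinone beside cytochrome b, ranged most. It held 301, 254.95, 315, 731 and 289.7 CPM in CKO, against 1770.1, 254, 424, 1163 and 246 CPM in flox, a log2 fold change of -1.03 ± 0.56 (edgeR adjusted p = 0.415). Flox 2 and flox 5 lay under every CKO library, and CKO 4 lay above all flox libraries but flox 1 and flox 4. Uqcrb, another small subunit, was at 0.25 ± 0.12 (edgeR adjusted p = 0.403), with 118 to 149 CPM in CKO and 99.8 to 133 CPM in flox.

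Complex IV reduces oxygen, and its nuclear subunits surround a catalytic core encoded in mitochondria. Its 14 tested genes had a median log2 fold change of -0.00, with 7 positive and 7 negative. Cox4i1, the main regulatory subunit, had 1034, 886, 998, 1612 and 876 CPM in CKO, against 3068, 850.0, 1134, 2344 and 803 CPM in flox. Its log2 fold change was -0.60 ± 0.38 (edgeR adjusted p = 0.464), and without flox 1 and flox 4 the remaining flox values lay within or under the CKO range. Cox7b had the smallest p of complex IV, with 222, 167, 179.7, 206 and 191 CPM in CKO and 185, 172, 152, 128 and 149.5 CPM in flox, a log2 fold change of 0.30 ± 0.13 (edgeR adjusted p = 0.382). Ndufa4, first assigned to complex I and since then to complex IV, followed with 0.33 ± 0.16 (edgeR adjusted p = 0.396) and 57.1 to 84.3 CPM in CKO, against 46.5 to 80.5 CPM in flox.

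Several complex IV subunits have tissue isoforms, and apart from Cox7a1 the forms known from heart and muscle, lung or testis were scarce here. Cox4i2, known from lung, had 5 counts over all 10 libraries, Cox6a2 had 8, Cox8b had 5 and Ndufa4l2, known for its response to hypoxia, had 20, all under the filter on low counts. Cox6b2, known from testis, held 1.53, 1.19, 1.31, 2.19 and 1.06 CPM in CKO, against 6.57, 1.49, 2.63, 4.08 and 0.562 CPM in flox, and its log2 fold change was -1.05 ± 0.52 (edgeR adjusted p = 0.401). As a share of the Cox6b FPKM, the authors' fragment count scaled by length and depth, it made up 0.68% ± 0.15 in CKO and 1.08% ± 0.50 in flox (SD, n = 5 each). Cox7a1, the heart and muscle form, was present beside Cox7a2, at 24.3 ± 6.0003 CPM in CKO and 29.3 ± 18.3 CPM in flox. Of the striated muscle markers with a row, Ckm was at 0 in every CKO library and at most 0.227 CPM in flox, and Acta1 held 0.991 to 7.79 CPM in CKO and 4.65 to 21.8 CPM in flox. The part of muscle RNA in the level of Cox7a1 was not tested.

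The share of Cox7a1 depended on how length was taken. It was 31.9% ± 1.63 in CKO and 33.5% ± 3.69 in flox of the FPKM of Cox7a1 and Cox7a2, but 16.7% ± 1.02 in CKO and 19.2% ± 3.05 in flox per annotated transcript length. The length that the FPKM imply was taken from counts and totals. It was 0.53 times the annotated length at the median of 91 members and under 0.5 times in 41. For Atp5g1, annotated at 4715 bases, it was 0.069 times, so per-length levels are uncertain for short and long annotated transcripts alike. Cox6a1, the form outside muscle, averaged 656 ± 119.9 CPM in CKO and 623 ± 164 CPM in flox. Cox6b1 averaged 325 ± 61.8 CPM in CKO and 366 ± 148 CPM in flox, and Cox8a 451 ± 117 CPM in CKO and 583 ± 291 CPM in flox. Cox7a2l, known for joining complexes III and IV, averaged 190.5 ± 25.9 CPM in CKO and 194 ± 44.4 CPM in flox.

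Complex V couples proton flow through a ring in the membrane to a catalytic head. Its 16 tested genes had a median log2 fold change of -0.18, with 3 positive and 13 negative. The catalytic head was steady in its alpha and beta subunits. Atp5b, the catalytic beta subunit, had 2112, 2153, 1645, 1697 and 1628 CPM in CKO, against 1768, 1997, 1829.9, 1797 and 2032 CPM in flox (log2 fold change -0.03 ± 0.17, edgeR adjusted p = 0.94). Atp5a1, the alpha subunit, averaged 1378 ± 134 CPM in CKO and 1444 ± 76.4 CPM in flox, and Atp5c1, the gamma subunit of the rotor, 436 ± 39.0 CPM in CKO and 475 ± 79.2 CPM in flox.

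Some small subunits varied far more between libraries, but not all. Atp5mpl held 65.4 to 81.8 CPM in CKO and 46.8 to 91.6 CPM in flox. Atp5e, the epsilon subunit, had 159.9, 141, 192, 371 and 218 CPM in CKO, against 1224, 146, 223, 507 and 140.0 CPM in flox, a log2 fold change of -1.05 ± 0.57 (edgeR adjusted p = 0.418). Flox 1 stood far above every other library, and flox 2, flox 3 and flox 5 lay within or just under the CKO range. Atp5d, the delta subunit, had 566, 573, 546, 1037 and 508 CPM in CKO, against 1859, 549, 752, 1498 and 525 CPM in flox (-0.68 ± 0.38, edgeR adjusted p = 0.423). Atp5k, a small subunit at the dimer interface, was at -0.90 ± 0.50 (edgeR adjusted p = 0.43), with 36.7 to 88.0 CPM in CKO and 34.3 to 239 CPM in flox.

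The c subunit of the membrane ring is made from 3 genes that differ in the targeting sequence that is cut off on import. Atp5g1 and Atp5g3 supplied nearly all of it: of the FPKM summed over the 3 genes, Atp5g1 made up 49.1% ± 4.41 in CKO and 55.6% ± 8.91 in flox, and Atp5g3 50.5% ± 4.36 in CKO and 44.0% ± 8.77 in flox. Per annotated length Atp5g3 led, with 88.6% ± 1.59 in CKO and 85.4% ± 3.97 in flox. That share rests on annotated lengths of 4715 bases for Atp5g1 and 723 for Atp5g3, whose total counts were 102312 and 115484, so it is uncertain. Atp5g2 contributed 0.40% ± 0.07 of the FPKM in CKO and 0.47% ± 0.18 in flox, at 4.29 ± 0.68 CPM in CKO and 5.19 ± 1.17 CPM in flox. Atpif1, the inhibitor of the enzyme and not a member by its symbol, averaged 164 ± 29.8 CPM in CKO and 210.2 ± 94.3 CPM in flox (log2 fold change -0.36 ± 0.25, edgeR adjusted p = 0.501).

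The 13 assembly and other factors had a median log2 fold change of -0.07, with 4 positive and 9 negative. Ndufaf8, an assembly factor of complex I, had 16.7, 16.1, 20.3, 29.7 and 21.4 CPM in CKO, against 55.5, 14.7, 23.0, 47.6 and 13.5 CPM in flox (-0.56 ± 0.38, edgeR adjusted p = 0.486). Ndufaf1, another, was at -0.25 ± 0.19 and Ndufaf4 at 0.18 ± 0.14, with edgeR adjusted p of 0.512 and 0.533. The pattern of Ndufaf8 was that of Atp5d and Atp5e, with flox 1, flox 4 and CKO 4 highest.

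By FPKM, the highest member was Ndufv3 in complex I (595 ± 176 in CKO, 604 ± 227 in flox), Sdhb in complex II (368 ± 35.4 in CKO, 292 ± 56.6 in flox), Uqcr10 in complex III (2179 ± 431 in CKO, 1719 ± 548 in flox), Cox4i1 in complex IV (2849 ± 474 in CKO, 2797 ± 785 in flox) and Atp5e in complex V (2177 ± 668 in CKO, 2457 ± 1687 in flox). The lowest tested members by FPKM were Ndufs1, Sdha, Uqcrc2, Cox6b2 and Atp5g2, and among the factors Ndufaf8 was highest and Sdhaf3 lowest. FPKM and CPM per annotated kilobase ordered the 91 members alike in broad terms (Spearman's rho 0.89 across genes), but per annotated kilobase Ndufb8 led complex I and Atp5b complex V, with Atp5e next. Ndufb4 counts may be shared with Ndufb4c, a related gene outside the rule, so its level is uncertain.

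Without flox 1 and flox 4 the direction of most members turned. The mean level of the members was higher in these libraries than in the other flox libraries. Leaving them out therefore by itself moves the fold changes of CKO over flox upward. CKO 4, the highest CKO library for 64 members, was kept. Its mitochondrial share was 11.8%, against 4.88% to 9.03% in the flox libraries left. The median log2 fold change became 0.24, with 74 of 91 positive, beside a median of 0.02 over all tested genes. The turn was not confined to members. Of 79 cytosolic ribosomal protein genes, 78 were then positive (median 0.40), against 26 with all 10 libraries. Of 78 mitochondrial ribosomal protein genes, 65 were positive (median 0.09), against 17. The tricarboxylic acid cycle went the other way, from 9 to 6 of 18 genes positive. Still 0 members were called by edgeR (background 0%), and DESeq2 called 0 (background 0.424%). At an unadjusted p under 0.05, 19 members were higher in CKO (background 3.34%) and 0 were lower (background 3.07%). Of the 19, 11 belonged to complex I and 6 to complex IV. The class medians were 0.27 in complex I, 0.05 in complex II, 0.30 in complex III, 0.29 in complex IV, 0.24 in complex V and 0.18 in the factors.

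Core and accessory subunits both moved, and the difference between them was not tested. The 7 nuclear core genes of complex I had a median of -0.01 without flox 1 and flox 4, and the 29 accessory genes 0.31, with 28 of them positive. The smallest p was that of Ndufa1, at 0.47 ± 0.14 (unadjusted p = 0.00538, edgeR adjusted p = 0.633). Among the other members, Ndufb4 was at 0.61 ± 0.19 (edgeR adjusted p = 0.653). Cox7a2 stood at 0.59 ± 0.22 and Cox7a1 at 0.51 ± 0.20 (edgeR adjusted p = 0.721 and 0.724). Across the 91 members, Spearman's rho between this fold change and transcript length was -0.58, and -0.04 over all tested genes with a length. Of the 3 flox libraries left, flox 5 had the lowest mean level of complex IV among all 10 libraries, at -0.52 log2 units relative to the genes' means.

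**Figure D2:**
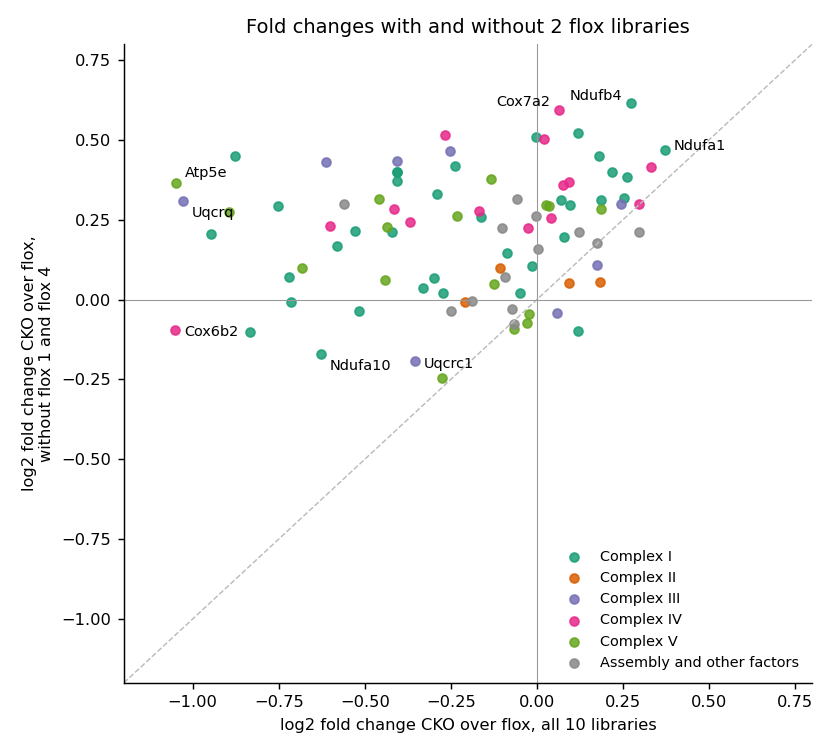
Each point is 1 of 91 tested members, coloured by complex: the log2 fold change of CKO over flox from all 10 libraries (x axis) against that without flox 1 and flox 4 (y axis), with the dashed line marking equality. Most points lie above the line, and 74 are above 0 on the y axis, against 31 on the x axis; no member passed the adjusted threshold in either fit.

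The relation to the mitochondrial share was then tested gene by gene, with the log2 share and the group in 1 model, so that the coefficient is the log2 change of a gene per doubling of the share within groups. With edgeR and Benjamini-Hochberg adjustment over all genes, 61 of 91 members rose with the share (background 17.8%) and 2 fell (background 16.5%). The median coefficient was 0.28 over members and -0.03 over all tested genes. Rising members were 26 of 36 in complex I, 2 of 4 in complex II, 4 of 8 in complex III, 12 of 14 in complex IV, 11 of 16 in complex V and 6 of 13 among the factors. The class medians were 0.40, 0.08, 0.39, 0.43, 0.37 and 0.16 in the same order.

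**Figure D3:**
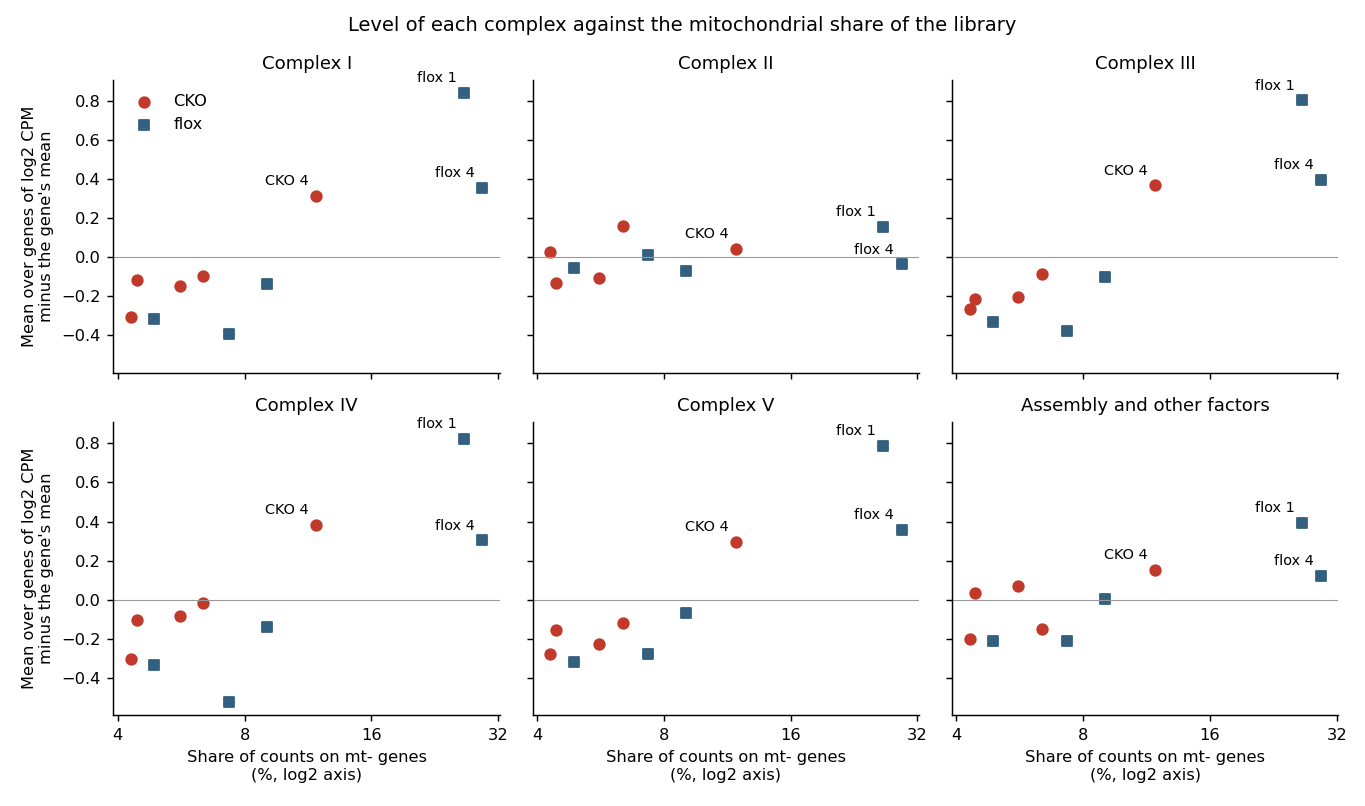
Each point is 1 library: the share of its counts on mt- genes (x axis, percent, log2 axis) against the mean over the tested genes of a complex of log2 CPM minus the gene's mean (y axis), with CKO as circles and flox as squares. Complexes I, III, IV and V reached 0.79 to 0.84 in flox 1, against 0.30 to 0.40 in flox 4, whose share was larger, while complex II stayed between -0.13 and 0.16.

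The largest coefficients, named after their values were seen, were those of small subunits. Not every small subunit rose: Ndufa1 and Uqcrb each had 0.08 and did not pass (edgeR adjusted p = 0.505 and 0.355). Uqcrq rose by 1.07 ± 0.10 per doubling (SE; edgeR adjusted p = 7.08e-05), Atp5e by 1.04 ± 0.17 (edgeR adjusted p = 0.00135), and Ndufa2 by 1.01 ± 0.14 (edgeR adjusted p = 0.000609). Ndufb7 rose by 0.93 ± 0.10 and Atp5k by 0.92 ± 0.15 (edgeR adjusted p = 8.87e-05 and 0.00133). Cox4i1 rose by 0.70 ± 0.08, Ndufs3 by 0.68 ± 0.06, Ndufs7 by 0.66 ± 0.07, Ndufv1 by 0.46 ± 0.06 and Cox8a by 0.55 ± 0.08, each with an edgeR adjusted p under 0.05.

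The 2 members that fell were the large catalytic subunits Ndufs1, at -0.27 ± 0.07 (edgeR adjusted p = 0.0106), and Sdha, at -0.18 ± 0.07 (edgeR adjusted p = 0.046). Others of the large or catalytic subunits did not pass the test: Uqcrc2 had -0.09 ± 0.07, Uqcrfs1 -0.07 ± 0.07, Atp5b -0.07 ± 0.08 and Atp5a1 -0.03 ± 0.07. Within complex V, the alpha and beta subunits of the head thus had coefficients near 0 while the gamma, delta and epsilon subunits of the rotor rose. The gamma subunit, Atp5c1, rose by 0.20 ± 0.06 (edgeR adjusted p = 0.0196). With the offset for length and GC content described below, Atp5c1 was at 0.10 and did not pass (edgeR adjusted p = 0.183). The delta and epsilon subunits still rose with that offset, by 0.45 and 0.51. Within complex III, Uqcrq, Uqcr11, Uqcr10 and Uqcrh rose, and Uqcrc1, Uqcrc2, Uqcrfs1 and Uqcrb did not pass. Of the promoters shown above, those of Atp5k (0.92), Ndufa11 (0.67) and Cox6a1 (0.31) belong to members that rose, and those of Atp5g2 (0.10) and Ndufaf4 (0.04) to members that did not pass.

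**Figure D4:**
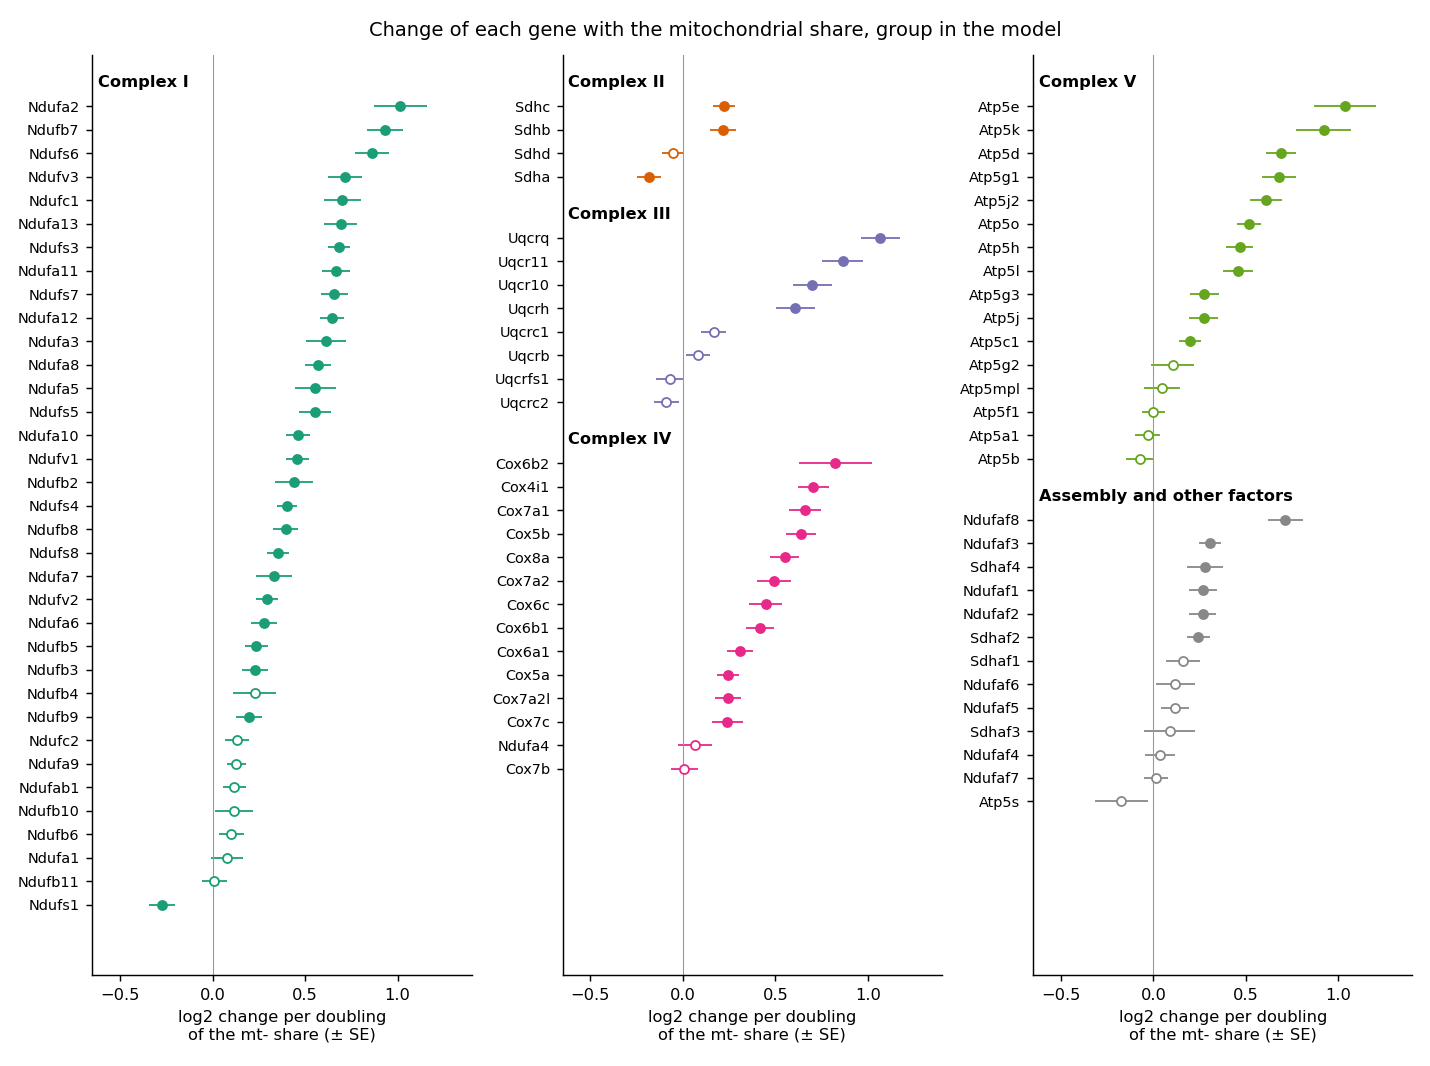
The log2 change of tested members, all but 1 of the 91, per doubling of the mt- share (x axis, bars are ± SE), by complex and sorted within it; filled points passed an edgeR adjusted p of 0.05 and open points did not. The scale runs from 1.07 for Uqcrq to -0.27 for Ndufs1, and the filled points of Ndufs1 and Sdha are the only ones below 0.

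These counts rested on the libraries with a large share. Without flox 1 and flox 4, 5 members rose (background 0.608%) and 0 fell (background 0.16%), although the median coefficient was 0.30 and 79 of 91 were positive. The 5 were Ndufb7, Ndufs3, Ndufs6 and Ndufv3 of complex I and Uqcrq of complex III, with edgeR adjusted p between 0.0381 and 0.0481. An exact order by share was not seen: flox 4 had the largest share, but each of complexes I, III, IV and V was higher in flox 1. The mitochondrially encoded subunits could not serve as a test, since they make up the share itself.

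Transcript length and base composition moved with these coefficients. Across the 91 members Spearman's rho of the coefficient was -0.39 with transcript length and 0.49 with GC content, against -0.44 and 0.25 over the 14128 tested genes that have both. Members that rose had a median length of 765 bases and a median GC content of 51.9%, against 1297 bases and 48.7% for the 28 that passed in neither direction. When an offset for length and GC content was fitted per library, 39 members rose (background 17.3%) and 7 fell (background 10.7%), with a median coefficient of 0.12. Uqcrq was then at 0.98, Atp5e at 0.51, Ndufs3 at 0.42 and Cox4i1 at 0.29, each past the threshold, whereas Cox6a1 was at -0.18 and Atp5g3 at -0.015 and neither passed. With an offset for length alone 37 rose (background 16.8%) and 11 fell (background 9.89%). The 7 that fell with both corrections were Ndufa1, Ndufb9, Ndufb10, Ndufb11, Ndufs1, Sdhd and Atp5mpl. Both offsets use the annotated lengths, which are uncertain. Atp5g1, with its long annotated transcript, went from 0.68 to 0.84 with the offset for length and GC content. The part of length and composition in the remaining relation was not tested.

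**Figure D5:**
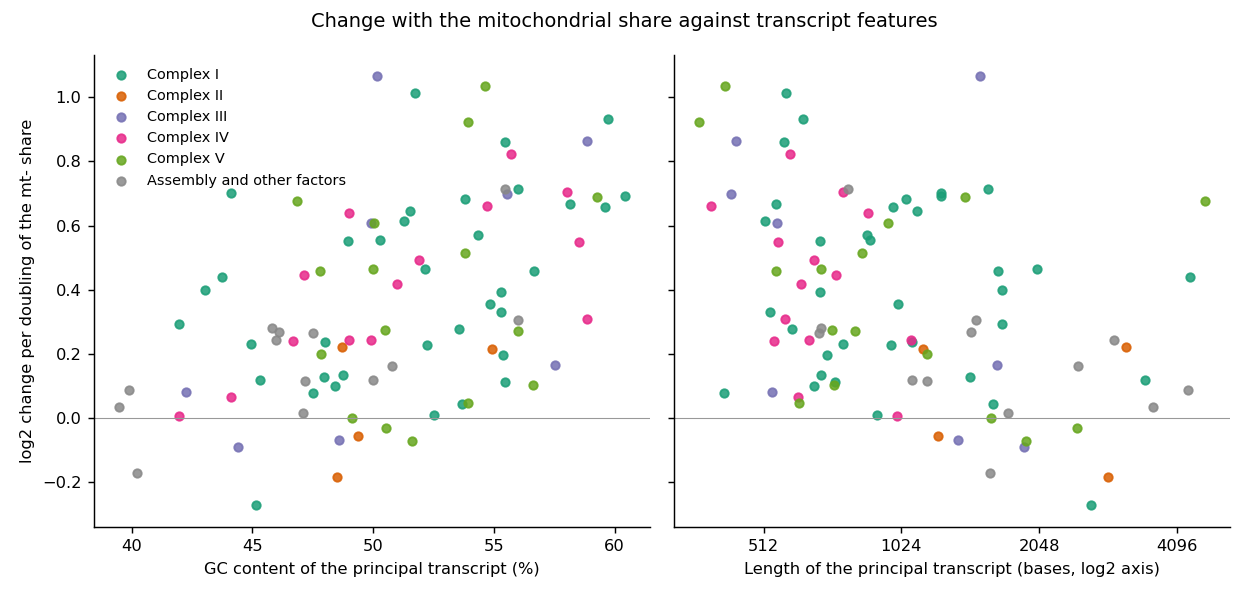
The coefficient on the mt- share of each of the 91 tested members (y axis, log2 change per doubling) against the GC content (left, percent) and the length (right, bases, log2 axis) of its principal transcript, coloured by complex. The rank correlation was 0.49 with GC content and -0.39 with length, and the long transcripts of Ndufs1 and Sdha lie at the bottom.

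The mitochondrially encoded partners were more variable than the nuclear members. All 13 mitochondrial subunit genes had a negative log2 fold change, with a median of -1.95, and edgeR called 0 of them. Lower in CKO at an unadjusted edgeR p under 0.05 were 12 of the 13 (background 7.91%). Leaving out flox 1 and flox 4 gave 8 of 13 negative (median -0.12), and 0 were lower at this threshold. These genes make up most of the mitochondrial share, whose own difference gave an exact permutation p of 0.167. The 12 can therefore not be counted as separate cases. Counts on these 13 genes were 2.74, 1.99, 2.36, 4.69 and 1.85 times those of the nuclear subunits of complexes I to V in CKO 1 to 5, against 12.1, 2.32, 4.36, 17.4 and 3.88 times in flox 1 to 5. For complex IV alone the ratio ran from 5.07 to 13.4 in CKO and from 7.39 to 51.2 in flox, and for complex V from 0.157 to 0.584 in CKO and from 0.193 to 1.44 in flox. These are ratios of counts, not per length.

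Other genes of mitochondrial energy metabolism were read from lists alongside. In the comparison of CKO with flox, 0 genes of these lists were called by edgeR. At an unadjusted p under 0.05, no list had more than 2 genes higher in CKO (background 5.05%) or more than 4 lower (background 7.91%). Lower were 3 of 18 genes of the tricarboxylic acid cycle, 3 of 17 electron carriers and entry points, and 4 of 78 mitochondrial ribosomal protein genes. With the mitochondrial share, where 17.8% of all tested genes rose and 16.5% fell, 1 of 18 genes of the tricarboxylic acid cycle rose and 3 fell (median coefficient -0.04), and in the comparison of groups Mdh2, malate dehydrogenase, averaged 454 ± 88.3 CPM in CKO and 633 ± 181 CPM in flox. Of 17 electron carriers and entry points, 5 rose and 2 fell (median -0.03). Of 35 tested assembly factors outside the symbol rule, 11 rose and 6 fell (median 0.09), and of 9 carriers and uncoupling proteins 3 rose and 0 fell (median 0.13).

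The ribosomal lists were counted in the same way. Of 78 mitochondrial ribosomal protein genes, 54 rose with the share and 2 fell (median coefficient 0.31), and of the cytosolic ribosomal protein genes 79 were tested, of which 58 rose and 0 fell (median 0.43), against the same 17.8% and 16.5% of all genes. With the offset for length and GC content, 36 of the 78 and 24 of the 79 rose (background 17.3%), and without flox 1 and flox 4 it was 3 and 0 (background 0.608%). Of 18 regulators of mitochondrial biogenesis, 1 rose and 4 fell (median -0.10). Ppargc1a, a coactivator of respiratory genes, averaged 18.7 ± 4.43 CPM in CKO and 13.0 ± 3.24 CPM in flox (log2 fold change 0.52 ± 0.21, edgeR adjusted p = 0.374), and Ppargc1b, its relative, 24.7 ± 4.48 CPM in CKO and 32.1 ± 5.54 CPM in flox (-0.38 ± 0.16, edgeR adjusted p = 0.376). Etfb, which brings electrons from fatty acid oxidation, rose with the share by 1.01 (edgeR adjusted p = 2.58e-05), close to Uqcrq, and Cyc1, the cytochrome c1 of complex III that the symbol rule leaves out, by 0.25 (edgeR adjusted p = 0.0112).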

How the data were processed

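Per the labels' protocols, RNA came from colon crypt tissue and the library kit, of the TruSeq type, enriched mRNA. The submitters' processing notes name fastp and HISAT2. Their versions, the build, annotation, counting tool and strandedness were not given in the sources used here. Whole-number read counts per Ensembl gene ID, not normalized, were deposited by the authors together with a table of FPKM. Groups and replicate numbers come from the sample titles.

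Of the 33632 IDs, 26102 matched GENCODE M21 (GRCm38), used for symbols, gene types and the length and GC content of principal transcripts. IDs with no match took 1.21% of counts. Promoter windows came from RefSeq. Counts were tested with edgeR 4.0.16 in R 4.3.3 (filterByExpr, TMM scaling, robust quasi-likelihood fit, group as the only term), with Benjamini-Hochberg adjustment over all tested genes at 0.05; the fit on the mitochondrial share had the log2 share and the group. A low-count filter set by group size kept 91 members. Both fits were checked on simulated counts. Alternatives used DESeq2 1.42.0, limma 3.58.1 (voom, or log2 of FPKM plus 1 or 0.1), RLE scaling, scaling without mt- genes and mitochondrial pseudogenes, no filter, the share as covariate, a replicate block, loess offsets for length (span 0.4) and for length and GC content (span 0.3), and left-out libraries. The GC offset, offsets without flox 1 and flox 4, and DESeq2 without them were chosen after seeing the data.

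Named genes were the catalytic and isoform genes, the 3 with the smallest p per complex, any called or not overlapping, and the highest and lowest per length; in other lists, up to 3 with the smallest p. Further members are named for their coefficients, and Cyc1 as a neighbour of the rule, after their values were seen. Values of 1 member are not reported here, though it is counted in the totals. Members and lists were chosen with earlier results of these data known. Intervals on the mt- share of a library (Wilson, 95%) were at most 0.0191 percentage points to either side and cover counting error only.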

Additional observations from a re-analysis of the deposited data

Results flagged for a closer look

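In groups of 5 libraries, a library was looked at again when its gap to the next exceeded 0.71 of the whole range. Of 84 groups looked at, for the 40 members that the naming rule takes and 2 library measures, 11 met this. Chance alone gives about 1 in 20 for a single group. The groups share the same libraries, so the 11 cannot be set against that rate as separate cases. In 9 of them the library was CKO 4. It held 1037 CPM of Atp5d, 683 CPM of Atp5g1, 1612 CPM of Cox4i1, 657 CPM of Cox8a, 212 CPM of Ndufs3, 176 CPM of Ndufs7, 318 CPM of Ndufv1 and 731 CPM of Uqcrq, each above the other 4 CKO libraries, and 11.8% of its counts lay on mt- genes. Flox 1 held 799 CPM of Atp5g3, above the other 4 flox libraries. Flox 5 held 1576 CPM of Atp5a1, above the other 4 flox libraries.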

How the results depend on the processing

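The count of 0 members called between CKO and flox held under every alternative run, those that leave out 1 library included. Over all genes edgeR called 0, DESeq2 165 (69 without flox 1 and flox 4), limma voom with quality weights 44 and edgeR with no filter 3. The median log2 fold change of members ranged from -0.19 (without flox 2) to 0.03 (without flox 1) when 1 library was left out. It was 0.03 with the length offset and -0.01 with that for length and GC content (45 positive, 46 negative), and 0.13 and 0.14 with the same offsets without flox 1 and flox 4. Without an offset it was 0.24 without flox 1 and flox 4, 0.25 with DESeq2 without them, and 0.26 with the log2 mt- share as a covariate. It was 0.34 on log2(FPKM + 1) and 0.35 on log2(FPKM + 0.1), where the median of all genes was 0.30 and 0.41, so relative to all genes it was 0.04 and -0.06. Of the 40 members that the naming rule takes, 18 changed sign without flox 1 and flox 4. Over all alternatives, 761 of 1000 fold changes stayed within 1 SE and 173 changed sign. The difference in mt- share ran from -11.5 to -5.43 percentage points when 1 library was left out (exact permutation p 0.0476 to 0.333).

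The 61 members rising with the mt- share became 49 to 64 when 1 library was left out, 5 without flox 1 and flox 4, 37 with the offset for length, 39 with that for length and GC content, and 2 with the latter without flox 1 and flox 4. The coefficient of Cox6a1 was -0.074 with the length offset, -0.18 with that for length and GC content, and -0.048 with the same without flox 1 and flox 4. That of Atp5g3 was -0.055 with the length offset and -0.015 with that for length and GC content, and that of Sdhb was -0.045 with the offset for length and GC content. The cause of these changes was not tested.

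Same-numbered libraries did not consistently deviate together (correlations of -0.30, 0.28, 0.09, 0.40 and -0.06). The labels state no pairing, and 5 correlations cannot exclude one, so whether the numbers pair the samples is unknown. With the replicate block, 0 of 91 members rose with the share (background 0%), 0 were called between groups and their median log2 fold change was -0.09. The exact sign-flip test of the mt- share over the 5 pairs gave p = 0.0625, the smallest it allows.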

Other observations

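Some respiratory chain genes stood outside the symbol rule. Usmg5, a small membrane subunit of the ATP synthase, averaged 87.0 ± 20.7 CPM in CKO and 97.7 ± 47.5 CPM in flox (SD, n = 5 each). It rose with the mitochondrial share by 0.47 per doubling on the log2 scale (edgeR adjusted p = 0.00259). Ndufb1-ps, listed under a pseudogene symbol, averaged 25.7 ± 3.90 CPM in CKO and 28.7 ± 10.99 CPM in flox and rose by 0.32 (edgeR adjusted p = 0.0227).

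Of the known regulators of nuclear respiratory genes, Nrf1 averaged 24.6 ± 1.51 CPM in CKO and 24.1 ± 3.49 CPM in flox, and its coefficient on the share was 0.07 (edgeR adjusted p = 0.463). Gabpa, the DNA-binding subunit of GABP, averaged 19.1 ± 3.65 CPM in CKO and 15.4 ± 5.51 CPM in flox and fell by 0.35 per doubling of the share (edgeR adjusted p = 0.0431). Esrra, which encodes the oestrogen-related receptor alpha, averaged 207 ± 20.1 CPM in CKO and 179 ± 28.2 CPM in flox, with a coefficient of -0.02 (edgeR adjusted p = 0.81). Tfam, the mitochondrial transcription factor, averaged 30.4 ± 3.18 CPM in CKO and 29.2 ± 4.66 CPM in flox, with a coefficient of -0.14 (edgeR adjusted p = 0.141). Sox21 itself fell by 0.53 per doubling of the share (edgeR adjusted p = 0.0143). Without flox 1 and flox 4 none of these 7 genes passed the adjusted threshold.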
